A study of Mus musculus with 15 samples.

Results

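Major histocompatibility complex (MHC) class II molecules display peptides taken from endosomes to CD4+ T cells. An alpha and a beta chain assemble around the invariant chain Cd74, which blocks the groove until endosomal proteases remove it, and the H2-DM heterodimer then exchanges the remaining fragment for a peptide. Transcription of these genes rests on Ciita, a coactivator that does not bind DNA itself but docks on a complex of RFX and NF-Y proteins at the promoters, and in macrophages Ciita is known to respond to interferon gamma.

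The genes described here are H2-Aa, H2-Ab1, H2-Eb1, Cd74, H2-DMa, H2-DMb1, H2-DMb2 and Ciita, 8 of the 16886 genes in the deposited gene table, taken by symbol. They were measured by RNA sequencing of total RNA from mouse bone macrophages grown for 14 days in medium holding 20 ng/ml of M-CSF, a cytokine that macrophages need. The groups were macrophages of VLDLR knockout mice (VLDLR_KO, 5 libraries), of ROBO4 knockout mice (ROBO4_KO, 5 libraries) and of wild-type mice (WT, 5 libraries), all labelled as strain C57BL6J. VLDLR is a lipoprotein receptor and ROBO4 a receptor of the roundabout family. The labels give no age or sex, do not describe the alleles and do not say that replicates were separate mice or cultures, so p-values measure the spread between these samples.

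The sample codes had a digit either before the letter B (7 libraries, namely VLDLR_KO replicates 1 and 2, ROBO4_KO replicates 1 and 2 and WT replicates 3 to 5) or after it (8 libraries, namely VLDLR_KO replicates 3 to 5, ROBO4_KO replicates 3 to 5 and WT replicates 1 and 2). What this code form means is not stated in the labels. It was held constant in the model, since 38.1% of the 11668 tested genes differed between the forms. Library totals were 18132866 to 19005966 estimated counts. Vldlr had 1 to 9 counts in VLDLR_KO, 2 to 38 in ROBO4_KO and 5 to 36 in WT, and Robo4 had 0 to 4 counts in any library, so the targeted genes check the genotype labels only weakly. All 10 macrophage markers were detected in every library. Of 8 B cell genes, 6 had at most 20 counts in every library, Pax5 and Ms4a1 (at most 3 counts) among them. The other B cell genes were Ebf1, with 0 to 27 counts, and Cd22, with 161 to 1180 counts. Immediate-early genes, a class switched on quickly by many stimuli, summed to 4562 and 5055 CPM in WT replicates 1 and 2 and to 700 to 1406 CPM in the other 13 libraries. These WT libraries stand apart from the others, and the comparisons of the class II genes and gene lists with WT are therefore also given without them. Levels below are CPM, read counts scaled to a common library total with TMM factors, and a call is an edgeR adjusted p under 0.05 over all tested genes, with the log2 fold change and its standard error (SE).

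Per length, Cd74 was the most abundant of the 8 transcripts, with a median of 115 FPKM (58.3 to 237 over the 15 libraries), and it was above every other gene in all 15 libraries. H2-DMb1, the beta chain of H2-DM, followed at a median of 32.4 FPKM (22 to 42.8), ahead of H2-Aa, the alpha chain of the I-A molecule, in 12 of 15 libraries (median 25.1 FPKM, 12.1 to 51.2). H2-Ab1, the I-A beta chain, had a median of 14.2 FPKM and lay below H2-Aa in 14 of 15 libraries. The next pair did not separate clearly, since H2-DMa, the alpha chain of H2-DM (median 7.67 FPKM), was above H2-Eb1 (median 4.75 FPKM) in 10 of 15 libraries. H2-Eb1 is the beta chain of the I-E molecule. At the low end, H2-DMb2 (median 0.51 FPKM) and Ciita (median 0.26 FPKM) were both under 2 FPKM in every library. H2-DMb1 and H2-DMb2 are near-identical neighbours. Their estimated counts were fractional while their sum was a whole number in all 15 libraries, to within 0.05, so reads had been divided between them. H2-DMb2 received 0.512% to 1.65% of the sum, and its level is uncertain.

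Of the 8 genes, 6 lie within the H2 locus on chromosome 17 (GRCm38), namely H2-DMa at 34122719 to 34139101, H2-DMb2 at 34145416 to 34151095, H2-DMb1 at 34153191 to 34160229, H2-Ab1 at 34263227 to 34269418 and H2-Eb1 at 34305867 to 34316674 on the plus strand, and H2-Aa at 34282751 to 34287771 on the minus strand. Ciita is on chromosome 16 at 10466860 to 10528606, on the plus strand. RefSeq promoter windows (GRCm38.p6) were at hand for H2-Aa, H2-Eb1, H2-DMa, H2-DMb1 and H2-DMb2. The stretches below are shown because class II promoters are known for an X box, bound by RFX, followed by a Y box, bound by NF-Y, and these are the sites through which Ciita acts. They lie upstream of the start site, run 5′ to 3′ on the strand of the gene, and carry 2 motifs each in capitals. The first is AAC followed 3 bases on by TGATG, and the second is GATTGG, the inverse of CCAAT. In H2-Aa the first is instead the palindrome TGACGTCA, a different sequence that is not marked as an RFX site. Binding of RFX and NF-Y was not measured.
H2-DMb1, chr17:34153081-34153152, plus strand: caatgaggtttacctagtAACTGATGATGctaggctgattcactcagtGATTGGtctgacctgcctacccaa
H2-DMb2, chr17:34145110-34145181, plus strand: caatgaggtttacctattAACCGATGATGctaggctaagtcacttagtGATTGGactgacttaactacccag
H2-Eb1, chr17:34305760-34305830, plus strand: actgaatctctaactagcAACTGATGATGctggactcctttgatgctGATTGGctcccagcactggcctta
H2-Aa, chr17:34287849-34287915, minus strand: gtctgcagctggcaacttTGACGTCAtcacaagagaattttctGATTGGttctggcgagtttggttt

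The letters searched were chosen after these promoters had been read, so a match describes them and is no test. In the 250 bases before the start, on both strands, GATTGG occurred in 14.6%, the AAC to TGATG motif in 0.539% and TGACGTCA in 1.55% of 32851 windows. The AAC to TGATG motif followed by GATTGG, with 15 to 35 bases from start to start, occurred in 6 windows (0.0183%). These belonged to H2-DMb1, H2-DMb2 and H2-Eb1, to H2-Ob, which encodes the beta chain of the H2-DM inhibitor H2-O, and to Cic and 1700048F04Rik. The spacing was 30 bases in H2-DMb1 and H2-DMb2 and 29 in H2-Eb1, and in H2-Aa TGACGTCA started 25 bases before GATTGG. H2-DMa had 2 windows and only GATTGG, 199 bases upstream in one of them. The printed stretches of H2-DMb1 and H2-DMb2 were identical at 62 of 72 positions (86.1%), although the counts assigned to these genes differed widely.

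VLDLR_KO macrophages had less mRNA of H2-Aa, H2-Eb1, Cd74, H2-DMb1 and Ciita than WT macrophages, while H2-Ab1 and H2-DMa did not pass the test. Of the 7 genes tested (H2-DMb2, at 3.28 to 11.2 counts per library, did not pass the filter), 5 were called lower and 0 higher by edgeR, where 9.03% of all tested genes were called lower, 7.74% higher and 16.8% in either direction. The median log2 fold change of the 7 genes was -0.76, against 0.02 for all tested genes. The comparison with WT depended on WT replicates 1 and 2, as given after the genes. In bulk RNA, less transcript per cell and fewer cells carrying it cannot be told apart.

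**Figure D1:**
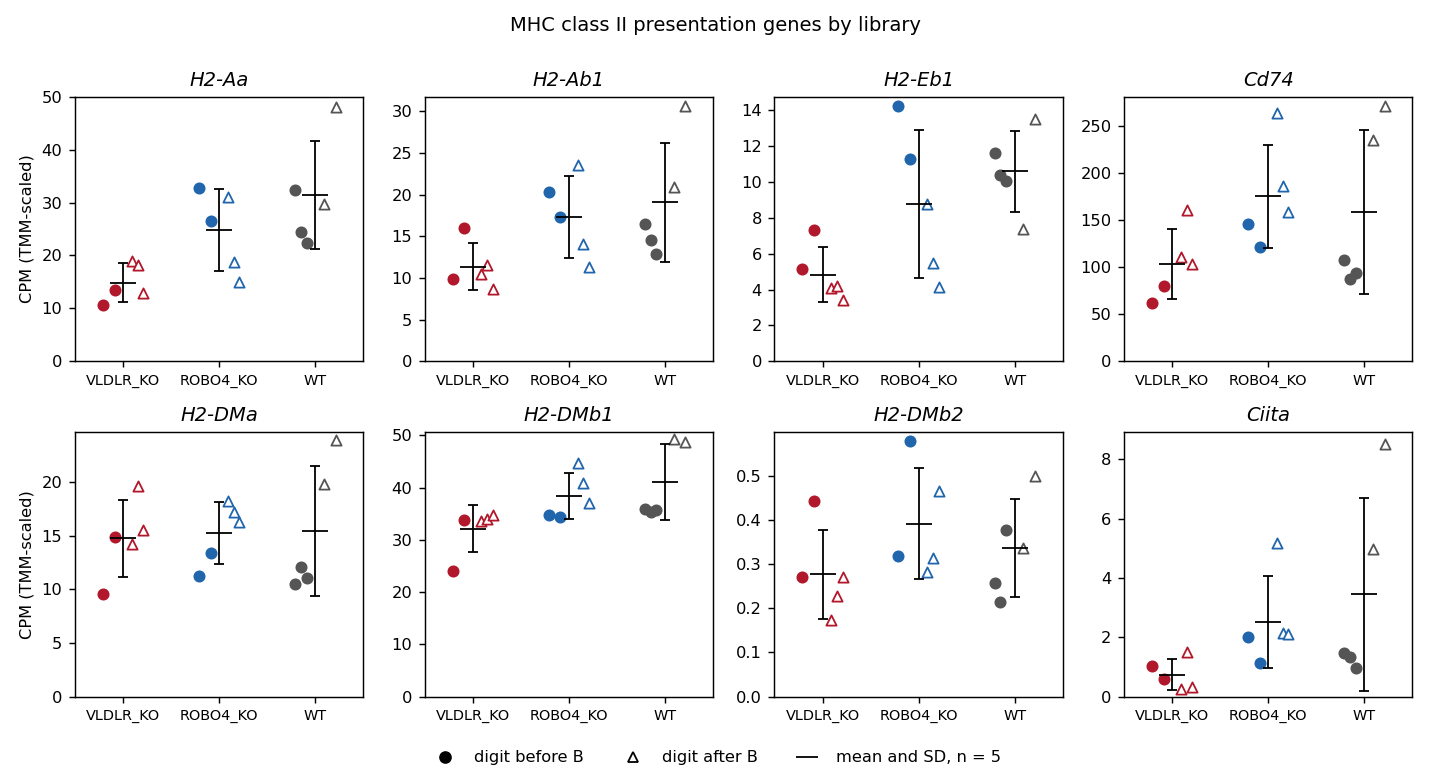
Level (CPM, TMM-scaled) of the 8 genes in each library of VLDLR_KO, ROBO4_KO and WT, with filled circles for libraries with the digit before B, open triangles for the digit after B, and black lines for the mean and SD of 5 libraries. For Cd74, H2-DMb1 and Ciita the 2 WT libraries with the digit after B lie above the other 3 WT libraries, and for H2-Aa the 5 VLDLR_KO libraries lie at 10.7 to 19 CPM, below all WT libraries.

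H2-Aa had 10.7, 13.4, 19, 18.3 and 12.9 CPM in VLDLR_KO replicates 1 to 5, 32.7, 26.6, 31.0, 18.7 and 15 CPM in ROBO4_KO, and 29.7, 48.2, 32.4, 24.4 and 22.3 CPM in WT. All VLDLR_KO libraries lay below all WT libraries, and the ROBO4_KO libraries spanned the gap. H2-Aa fell by 1.11 on the log2 scale in VLDLR_KO against WT (log2 fold change -1.11, SE 0.25, edgeR adjusted p = 0.00753). The difference was of like size within each form, -1.12 with the digit before B (adjusted p = 0.013) and -1.22 with the digit after B (adjusted p = 0.04). Its partner H2-Ab1 had 9.89, 16.0, 10.5, 11.5 and 8.69 CPM in VLDLR_KO, 20.3, 17.3, 23.6, 14.1 and 11.3 CPM in ROBO4_KO, and 20.9, 30.6, 16.4, 14.6 and 12.8 CPM in WT. Here the groups overlapped and the difference of -0.76 (SE 0.25) was not called (adjusted p = 0.0558).

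H2-Eb1 had 5.16, 7.31, 4.07, 4.18 and 3.44 CPM in VLDLR_KO, 14.2, 11.3, 8.78, 5.47 and 4.15 CPM in ROBO4_KO, and 7.38, 13.5, 11.6, 10.4 and 10.1 CPM in WT. The highest VLDLR_KO library lay just below the lowest WT library, and H2-Eb1 was called lower in VLDLR_KO (-1.07, SE 0.25, edgeR adjusted p = 0.0085). Within the forms it differed by -0.77 with the digit before B (adjusted p = 0.0379) and by -1.42 with the digit after B (adjusted p = 0.029).

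Cd74 lies on the plus strand of chromosome 18, at 60800770 to 60812652 (GRCm38). It had 62.3, 80.0, 111, 161 and 104 CPM in VLDLR_KO, 146, 121, 264, 187 and 159 CPM in ROBO4_KO, and 235, 271, 107, 87.1 and 93.9 CPM in WT. The WT libraries fell into 2 separate levels by code form, and those with the digit before B overlapped with VLDLR_KO. With the form in the model Cd74 was called lower in VLDLR_KO than in WT (-0.71, SE 0.18, edgeR adjusted p = 0.0159). The difference was -0.42 with the digit before B (adjusted p = 0.0986) and -1.02 with the digit after B (adjusted p = 0.0264).

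Of the 2 chains of the peptide exchanger H2-DM, the beta chain H2-DMb1 was called and the alpha chain was not. H2-DMb1 had 24.1, 33.9, 33.7, 34.1 and 34.8 CPM in VLDLR_KO, 34.8, 34.4, 44.7, 40.9 and 37.0 CPM in ROBO4_KO, and 49.4, 48.6, 35.9, 35.4 and 35.8 CPM in WT. The VLDLR_KO and WT libraries did not overlap, but 4 of the 5 VLDLR_KO libraries (33.7 to 34.8 CPM) lay close to the WT libraries with the digit before B (35.4 to 35.9 CPM). The fold was small and called (-0.40, SE 0.09, edgeR adjusted p = 0.00672). H2-DMa had 9.62, 14.9, 14.2, 19.7 and 15.5 CPM in VLDLR_KO, 11.2, 13.4, 18.2, 17.2 and 16.3 CPM in ROBO4_KO, and 19.8, 24.0, 10.5, 12.1 and 11.1 CPM in WT, with overlap throughout. Its log2 fold change was -0.14 (SE 0.15, adjusted p = 0.541). Groups of VLDLR_KO and WT did not overlap for 3 of the 7 genes, H2-Aa, H2-Eb1 and H2-DMb1, all lower in VLDLR_KO, a pattern held by 5.45% of all tested genes.

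Ciita, the coactivator, was scarce, with 5 to 27 counts in VLDLR_KO libraries, 22 to 93 in ROBO4_KO and 18 to 149 in WT. It had 1.03, 0.595, 0.264, 1.51 and 0.318 CPM in VLDLR_KO, 2.02, 1.14, 5.17, 2.14 and 2.10 CPM in ROBO4_KO, and 4.98, 8.50, 1.46, 1.32 and 0.959 CPM in WT. VLDLR_KO replicates 3 and 5 were the lowest libraries and WT replicate 2 the highest, while VLDLR_KO replicates 1 and 4 reached the range of the WT libraries with the digit before B. The log2 fold change against WT was -2.07 (SE 0.56, edgeR adjusted p = 0.0211), and it was -0.60 with the digit before B (adjusted p = 0.351) and -3.28 with the digit after B (adjusted p = 0.0166). The call was lost without VLDLR_KO replicate 5 (adjusted p = 0.0548) and without WT replicate 2 (adjusted p = 0.0697), and without WT replicate 2 the call of Cd74 was lost as well (adjusted p = 0.0584).

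Without WT replicates 1 and 2, the libraries with high immediate-early genes, 0 of the 7 genes were called by edgeR in VLDLR_KO against WT and 3 had an unadjusted p under 0.05, where 5.61% of all genes tested there were called lower and 11% in either direction (1312 genes). The log2 fold changes were then -0.81 for H2-Aa (edgeR adjusted p = 0.116), -0.65 for H2-Eb1 (0.118), -0.30 for H2-DMb1 (0.135), -0.36 for Cd74 (0.277), -0.99 for Ciita (0.323), -0.21 for H2-Ab1 (0.618) and 0.11 for H2-DMa (0.7), so H2-DMa turned its sign. The part of these libraries in the result was not tested further. In the 7 libraries with the digit before B, which include neither, 2 of 7 genes were called lower, H2-Aa and H2-Eb1 (10.5% of genes tested there were called lower). In the 8 libraries with the digit after B, where WT consists of these libraries alone, 6 of 7 were called lower, all but H2-DMa (background 8.92%). A model without the code form called 2, H2-Aa (adjusted p = 0.0148) and H2-Eb1 (adjusted p = 0.0328).

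**Figure D2:**
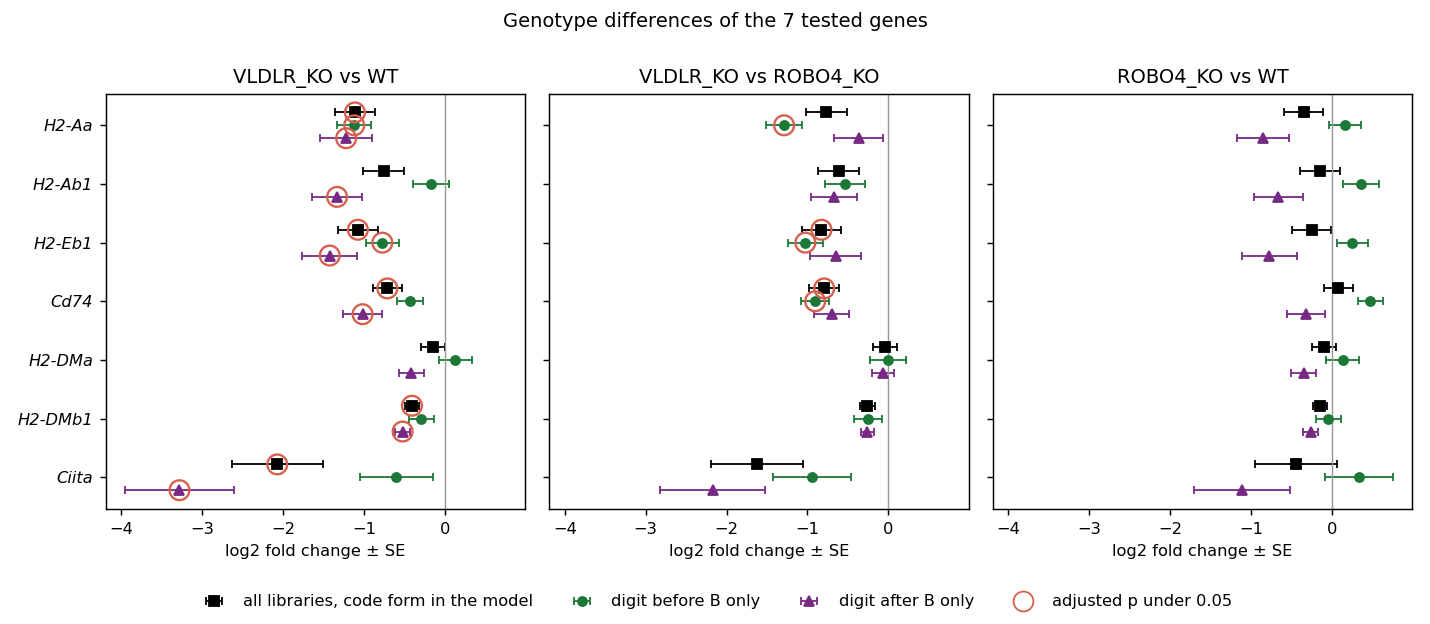
Log2 fold changes with SE of the 7 tested genes for VLDLR_KO against WT, VLDLR_KO against ROBO4_KO and ROBO4_KO against WT, from all libraries with the code form in the model (squares), from libraries with the digit before B (circles) and with the digit after B (triangles), with rings where the edgeR adjusted p is under 0.05. H2-Aa and H2-Eb1 are ringed in all 3 fits of VLDLR_KO against WT, and no gene is ringed for ROBO4_KO against WT.

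The second knockout gave a comparison in which WT was not one of the groups compared. The WT libraries were still in the fit, where they entered the spread and the code form term. All 7 genes had negative log2 fold changes in VLDLR_KO against ROBO4_KO (median -0.76, against 0.02 for all tested genes), and 2 were called lower, where 8.44% of all tested genes were called lower, 7.57% higher and 16% in either direction. Groups did not overlap for 0 of the 7 genes (lower in 4.89% of all tested genes). Cd74 was lower by a log2 fold change of -0.79 (SE 0.18, edgeR adjusted p = 0.00897), with -0.90 among libraries with the digit before B (adjusted p = 0.0201) and -0.70 among those with the digit after B (adjusted p = 0.0668). H2-Eb1 was called at -0.83 (SE 0.25, adjusted p = 0.0355), with -1.02 (adjusted p = 0.0276) and -0.65 (adjusted p = 0.206) within the forms. H2-Aa, at -0.76, came close to the threshold (adjusted p = 0.0511), as did H2-DMb1 at -0.26 (0.0633) and Ciita at -1.62 (0.0653), while H2-Ab1 (-0.61, 0.12) and H2-DMa (-0.04, 0.873) were farther from it.

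By code form, 3 of 7 genes were called lower in VLDLR_KO against ROBO4_KO with the digit before B, H2-Aa (-1.29, edgeR adjusted p = 0.014), H2-Eb1 and Cd74 (background 6.77%). With the digit after B 0 of 7 were called by edgeR (background 7.61%), while 4 had an unadjusted p under 0.05, and the adjusted p ranged from 0.0598 to 0.787. H2-Eb1 lost its call without any one of ROBO4_KO replicates 1 to 3 or VLDLR_KO replicates 1, 3 or 5 (adjusted p = 0.0571 to 0.103). Both calls were lost without the code form in the model (H2-Eb1 adjusted p = 0.109, Cd74 adjusted p = 0.207).

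ROBO4_KO macrophages were not distinguished from WT in any of the 7 genes. By edgeR 0 of 7 were called, where 0.643% of all tested genes were called in either direction, and 0 of 7 had an unadjusted p under 0.05 (715 of all genes did). DESeq2 and limma called 0 of 7 as well. Log2 fold changes ran from -0.45 (SE 0.51) for Ciita to 0.08 (SE 0.18) for Cd74, with H2-Aa at -0.35 (SE 0.24). Without WT replicates 1 and 2 the differences ran from -0.08 for H2-Aa to 0.70 for Ciita, again with 0 called by edgeR, and H2-Ab1, H2-Eb1, H2-DMa and Ciita turned positive. The signs turned with the code form for 6 of the 7 genes. With the digit before B, ROBO4_KO differed from WT by 0.48 for Cd74, 0.36 for H2-Ab1, 0.34 for Ciita, 0.25 for H2-Eb1, 0.17 for H2-Aa, 0.14 for H2-DMa and -0.04 for H2-DMb1. With the digit after B the differences were -0.32, -0.66, -1.11, -0.77, -0.85, -0.35 and -0.26 for the same genes. None of these within-form differences was called (lowest adjusted p 0.242 for H2-DMb1 with the digit after B), and 0.168% and 1.6% of genes were called in the digit-before and digit-after comparisons.

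**Figure D3:**
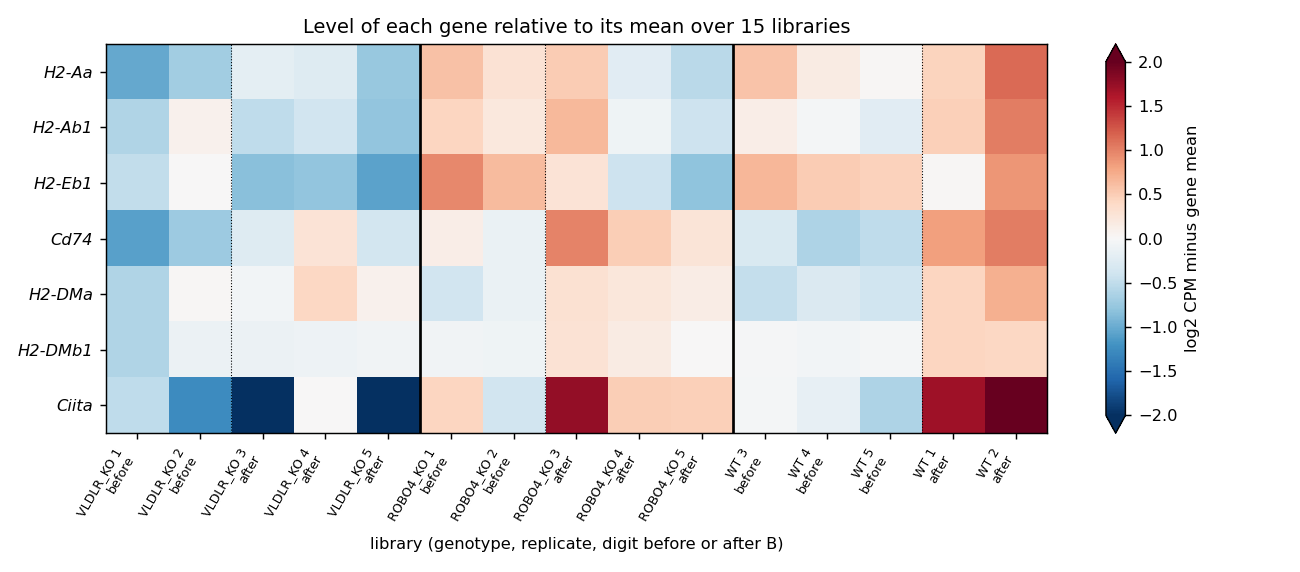
Log2 CPM of the 7 tested genes minus the mean of each gene over 15 libraries, with libraries in columns (VLDLR_KO, ROBO4_KO, WT from left to right, split by the digit before or after B) and genes in rows, colours ending at -2 and 2. VLDLR_KO columns are mostly blue, WT replicates 1 and 2 are mostly red, and Ciita spans the widest range.

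Between the code forms the class II set differed in make-up as well as in level. With genotype in the model, 4 of the 7 genes were called higher with the digit after B than with the digit before B, and 1 lower, against 18.8% and 19.3% of all tested genes (38.1% in either direction). Cd74 was higher by 0.94 (SE 0.15, edgeR adjusted p = 0.000273), H2-DMa by 0.63 (SE 0.12, adjusted p = 0.00108), H2-DMb1 by 0.31 (SE 0.07, adjusted p = 0.00429) and Ciita by 1.20 (SE 0.45, adjusted p = 0.0477). H2-Eb1 was lower by -0.58 (SE 0.20, adjusted p = 0.032), and H2-Aa (0.18, adjusted p = 0.502) and H2-Ab1 (0.10, adjusted p = 0.728) were not called. Ciita and H2-Eb1 each lost this call when one of several single libraries was left out, Ciita already without WT replicate 1 (adjusted p = 0.0757) and H2-Eb1 without ROBO4_KO replicate 1 (adjusted p = 0.0796). Without WT replicates 1 and 2 the calls of Cd74, H2-DMa and H2-Eb1 were made and those of Ciita (0.44, adjusted p = 0.524) and H2-DMb1 (0.24, adjusted p = 0.0676) were not.

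Ratios of FPKM within a library describe the same shift without scaling between libraries. H2-Eb1 stood at 0.127 to 0.175 of H2-Aa in the 8 libraries with the digit after B and at 0.216 to 0.33 in the 7 with the digit before B, with no overlap between the forms. How often ratios of other gene pairs separate in this way was not examined, and 38.1% of all tested genes were called between the forms. Cd74 was 4.62 to 8.73 times H2-Aa with the digit after B and 2.75 to 4.93 times with the digit before B, and the ranges overlapped. H2-Aa stood at 0.954 to 2.24 times H2-Ab1 over all libraries, with VLDLR_KO replicate 2 lowest, and its ranges in the forms overlapped. By genotype, the Cd74 to H2-Aa ratio ran over 4.8 to 7.3 in VLDLR_KO, 3.69 to 8.73 in ROBO4_KO and 2.75 to 6.51 in WT.

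**Figure D4:**
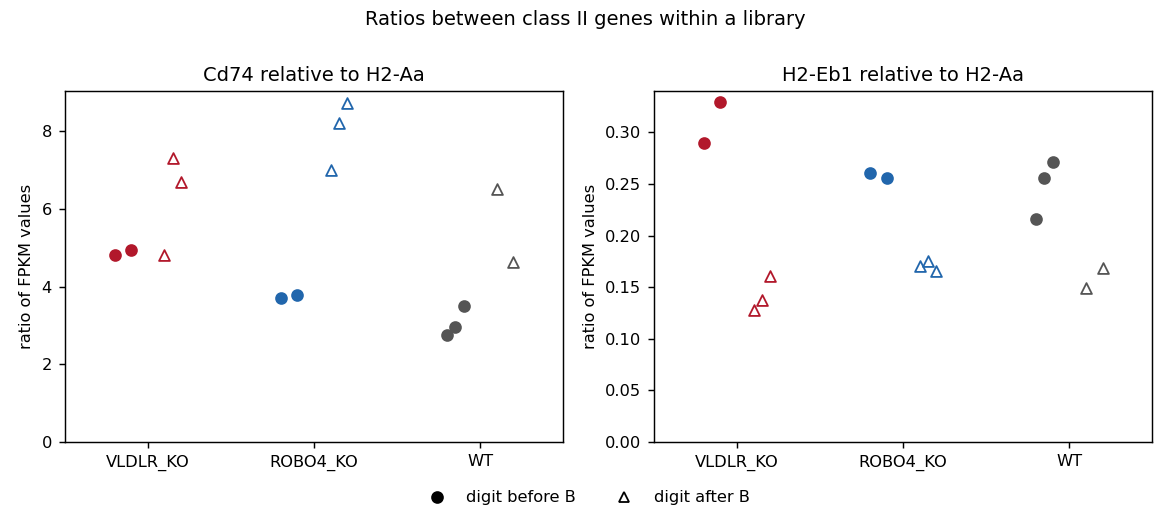
Ratio of FPKM values within each library for Cd74 over H2-Aa (left) and H2-Eb1 over H2-Aa (right), by genotype, with filled circles for the digit before B and open triangles for the digit after B. In the right panel all 8 triangles (0.127 to 0.175) lie below all 7 circles (0.216 to 0.33).

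Whether the genotype differences themselves changed with the form was tested by an interaction term. By edgeR 0 of 7 genes were called in the joint test, where 10.9% of all tested genes were. An unadjusted p under 0.05 was reached by 2 of 7, H2-Ab1 (adjusted p = 0.113) and Ciita (adjusted p = 0.131), and by 3716 of all genes. DESeq2 called 0 and limma called 1. For Ciita the VLDLR_KO difference from WT was larger in size with the digit after B by -2.67 (SE 0.92, adjusted p = 0.065), and for H2-Ab1 by -1.15 (SE 0.41, adjusted p = 0.0722). These differences had wide errors, and a call missed here does not show equal differences in the forms.

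Genes around the class II pathway were examined in lists, whose counts stand beside the shares of all tested genes. In VLDLR_KO against WT 9.03% of all tested genes were called lower and 7.74% higher, and in VLDLR_KO against ROBO4_KO 8.44% and 7.57%. Without WT replicates 1 and 2, 5.61% were called lower than WT and 11% in either direction. Among genes listed for endosomal antigen processing, 5 of 13 were called lower and 1 higher in VLDLR_KO against WT (list median -0.04, all genes 0.02). Ctsh, the aminopeptidase cathepsin H, had 94.9 ± 27.7 CPM in VLDLR_KO, 242 ± 64.3 CPM in ROBO4_KO and 268 ± 69.5 CPM in WT (SD, n = 5 each). It fell by 1.66 on the log2 scale against WT (SE 0.08, edgeR adjusted p = 4.29e-09), with -1.73 and -1.58 in the digit-before and digit-after libraries. Asah1, on this list but a lysosomal acid ceramidase and not a protease, had 326 ± 28.1 CPM in VLDLR_KO, 601 ± 40.6 CPM in ROBO4_KO and 584 ± 27.8 CPM in WT (-0.85, adjusted p = 2.44e-06 against WT). Ctss, cathepsin S, the protease known for the last cuts of the invariant chain, had 3072 ± 670 CPM in VLDLR_KO, 4235 ± 1269 CPM in ROBO4_KO and 4056 ± 1179 CPM in WT, and was called lower against WT (-0.49, SE 0.12, adjusted p = 0.0116). Ctsc, cathepsin C, was the member called higher (0.69, adjusted p = 0.012). Against ROBO4_KO, 4 of 13 were lower and 3 higher, the largest gain being cathepsin L (Ctsl, 0.99, adjusted p = 0.00514). With WT replicates 1 and 2 left out, 2 of 13 were called lower against WT, Ctsh (-1.69, adjusted p = 1.39e-06) and Asah1 (-0.78, adjusted p = 0.000378), and 1 higher, Ctsc (0.86, adjusted p = 0.0264), while Ctss was not called (-0.41, adjusted p = 0.128).

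Few factors upstream of class II transcription were called in VLDLR_KO against WT over both forms together, and more were called within a form. Of 10 genes of the promoter complex, 1 was called higher in VLDLR_KO against WT, the NF-Y subunit Nfyc (0.32, edgeR adjusted p = 0.0245). Rfx5, the DNA-binding RFX subunit, had 11.8 ± 1.33 CPM in VLDLR_KO, 11.1 ± 1.15 CPM in ROBO4_KO and 11.8 ± 2.45 CPM in WT (-0.03, adjusted p = 0.872). Of 10 genes of the interferon gamma arm (among them receptor chains, kinases and transcription factors), 0 were called by edgeR and 1 had an unadjusted p under 0.05. With the digit before B, 4 of the 10 arm genes were higher and 1 lower, and 3 of the 10 promoter complex genes were higher. In that fit 2442 of 11894 tested genes were called in either direction, and 10.5% were called lower. With the digit after B, 3 arm genes were lower and 0 higher, and 0 promoter complex genes were called by edgeR (2 had an unadjusted p under 0.05). There 1839 of 11744 tested genes were called in either direction, and 8.92% were called lower. Among interferon gamma responsive genes 3 of 11 were lower, namely the immunity-related GTPase genes Irgm2 (-1.11, adjusted p = 9.77e-06), Tgtp2 (-1.11, adjusted p = 0.0267) and Irgm1 (-0.40, adjusted p = 0.0137). Leaving out WT replicates 1 and 2, the calls of Irgm2 (-1.13, adjusted p = 0.000555) and Irgm1 (-0.53, adjusted p = 0.0164) were made and that of Tgtp2 was not (-1.28, adjusted p = 0.0635). Crebbp of the promoter complex (0.43, adjusted p = 0.0181) and Batf2 of the responsive genes (1.10, adjusted p = 0.0308) were then called higher as well. Irgm2 had 14.0 ± 2.49 CPM in VLDLR_KO, 28.6 ± 3.24 CPM in ROBO4_KO and 31.0 ± 2.27 CPM in WT.

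Some of these genes differed in opposite directions in the forms. Irf1, a transcription factor of the interferon gamma arm, had 56.6 and 60.5 CPM in VLDLR_KO libraries with the digit before B, against 33.5 to 41.3 CPM in WT. With the digit after B it had 26.3 to 30.4 CPM in VLDLR_KO, against 63.7 and 73.2 CPM in WT. The log2 fold changes of VLDLR_KO against WT were 0.61 and -1.24, and they differed between the forms by -1.84 (SE 0.16, edgeR adjusted p = 2.45e-05). H2-K1, a class I heavy chain, had 698 and 1049 CPM in VLDLR_KO against 399 to 476 CPM in WT with the digit before B, and 377 to 412 CPM in VLDLR_KO against 544 and 561 CPM in WT with the digit after B (difference -1.51, SE 0.20, adjusted p = 0.000752). Over the lists, 5 of 10 genes of the interferon gamma arm and 7 of 11 class I genes were called for this difference, beside 0 of the 7 class II genes, where 15.2% of all tested genes were called. Irf1 and H2-K1 were picked after their values had been seen, as the members of each list with the largest such difference.

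Among costimulatory and adhesion ligands, 3 of 8 were called higher in VLDLR_KO against WT, Icosl (1.74, edgeR adjusted p = 0.00156), Icam1 (1.02, adjusted p = 0.0121) and Cd86 (0.85, adjusted p = 0.0272), and 1 lower, the inhibitory ligand gene Cd274 (-0.89, adjusted p = 0.00146). With the digit before B, 4 of 8 were called higher and 1 lower, where 2442 of 11894 tested genes were called in either direction. With the digit after B 0 were higher and 2 lower, where 1839 of 11744 tested genes were called in either direction. Icosl differed by 1.87 (adjusted p = 0.000778) and 1.67 (adjusted p = 0.0917) in these forms. Icam1 differed by 1.88 with the digit before B (adjusted p = 0.000199) and by 0.14 with the digit after B (adjusted p = 0.563), and Cd274 by -0.83 (adjusted p = 0.031) and -1.01 (adjusted p = 0.00553). Of 5 genes listed as lowering Ciita, 2 fell and 0 rose. The cytokine gene Il10 was lower in VLDLR_KO (-4.02, adjusted p = 0.00297), at 0.231 ± 0.155 CPM in VLDLR_KO, 0.521 ± 0.345 CPM in ROBO4_KO and 4.44 ± 5.41 CPM in WT (SD, n = 5 each), where single libraries ran from 0.312 to 10.6 CPM. Zfp36 of the same list was also lower (-2.18, adjusted p = 0.0131). Zfp36 is an immediate-early gene as well, and 7 of 14 genes of that list were lower, Fosb (-5.71), Nr4a1 (-3.34) and Fos (-3.01) by most. March8, a ubiquitin ligase that removes class II molecules from the surface, was the 1 of 3 turnover genes called (-0.35, adjusted p = 0.0216). When WT replicates 1 and 2 were left out, the 4 calls among the ligands were made again, but 0 of the 5 Ciita-lowering genes (Il10 -1.43, adjusted p = 0.229) and 0 of the 3 turnover genes were called by edgeR, and of the immediate-early genes 2 were lower and 1 higher. In ROBO4_KO against WT, 0 of 108 tested genes of these lists were called by edgeR, and 26 had an unadjusted p under 0.05 (lowest adjusted p 0.0749).

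Markers of other cells that carry class II were measured beside these genes. Of 13 dendritic cell genes, 8 had at most 20 counts in every library, Flt3 among them (0 to 2 counts in VLDLR_KO, 0 in ROBO4_KO and WT), and Zbtb46 had 5 to 14 counts in VLDLR_KO, 2 to 17 in ROBO4_KO and 1 to 12 in WT. Itgax, the integrin CD11c, which macrophages also express, was called higher in VLDLR_KO (1399 ± 630 CPM, against 432 ± 359 CPM in ROBO4_KO and 367 ± 378 CPM in WT; 2.21 against WT, edgeR adjusted p = 0.000727). Clec9a, a marker of cross-presenting dendritic cells, went the other way, with 0 to 1 counts in VLDLR_KO, 1 to 11 in ROBO4_KO and 2 to 14 in WT. It was tested with the digit after B, where it was called lower in VLDLR_KO (adjusted p = 0.0219). Xcr1, of the same list, did not follow Clec9a, with 9 to 21 counts in VLDLR_KO, 1 to 10 in ROBO4_KO and 1 to 8 in WT. Without WT replicates 1 and 2 Xcr1 was not called against WT (1.80, edgeR adjusted p = 0.165). The summed dendritic cell list, mostly Itgax, ranged over 757 to 2374 CPM in VLDLR_KO, 94.9 to 970 CPM in ROBO4_KO and 72.1 to 850 CPM in WT. Of 8 B cell genes in the table, 6 had at most 20 counts in every library, and the accessory chains H2-Oa and H2-Ob, typical of B cells, had at most 10 counts. Klrb1c, the NK receptor NK1.1, had 0 counts in all VLDLR_KO libraries, against 10 to 20 in ROBO4_KO and 7 to 24 in WT, and 6 of 7 T and NK cell genes had at most 20 counts everywhere. Of 8 fibroblast genes tested 1, Col3a1, was lower (-4.10, adjusted p = 0.0115), and all 8 had negative log2 fold changes in VLDLR_KO against WT. That list summed to 9.67 to 338 CPM in VLDLR_KO, 45.2 to 519 CPM in ROBO4_KO and 87.3 to 697 CPM in WT. The B cell list, mostly Cd22, summed to 20.4 to 66.4 CPM in VLDLR_KO, 9.06 to 45.1 CPM in ROBO4_KO and 10.8 to 56.6 CPM in WT. Among macrophage genes 2 of 10 were higher, Cd163 (1.94) and Lyz2 (1.27), and 3 lower, Itgam (-0.82), Fcgr1 (-0.78) and Adgre1 (-0.35), against 7.74% and 9.03% of all tested genes. Without WT replicates 1 and 2 the calls of Itgax (2.76), Klrb1c, Cd163 (2.07), Lyz2 (1.77) and Fcgr1 (-0.88) were made. Those of Itgam (-0.87, edgeR adjusted p = 0.0605), Adgre1 (-0.27, adjusted p = 0.129) and Col3a1 (-4.06, adjusted p = 0.0546) were not. Csf1r (0.82) and Cd14 (1.09) were then called higher in addition. The part of these cell markers in the class II differences was not tested.

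Transcripts of the 8 genes numbered 17, of which 12 passed the filter. In VLDLR_KO against WT 3 of 12 were called lower, those of H2-Aa, H2-Eb1 and H2-DMb1, which each have a single transcript (3.33% of all tested transcripts were called in either direction). Against ROBO4_KO 2 were called, both of Cd74 (background 3.27%), and in ROBO4_KO against WT 0 were called by edgeR (background 0.11%). Cd74 has a shorter transcript, NM_010545.3, and a longer one, NM_001042605.1. The longer transcript took 19.9 ± 2.03% of the Cd74 reads in VLDLR_KO, 22.1 ± 1.78% in ROBO4_KO and 21.7 ± 2.38% in WT (SD, n = 5 each). VLDLR_KO replicate 5 had the lowest share, 16.6%, and over both forms together the groups overlapped. With the digit after B, VLDLR_KO (16.6% to 21.3%) lay below ROBO4_KO (22.5% to 24.4%) and WT (24.1% and 24.3%). The mean difference from WT was -4.98 points there and 0.98 points with the digit before B. With both forms pooled, no genotype difference in this share passed an exact two-sided permutation test (p = 0.238 for VLDLR_KO against WT, 0.111 for VLDLR_KO against ROBO4_KO and 0.754 for ROBO4_KO against WT, adjusted over 12 tests 0.408, 0.333 and 0.754, where 0.00794 is the smallest p possible). Differences of this share within a form were not tested.

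H2-DMa was assigned mainly to NM_010386.4. Its share was higher on average with the digit after B, but this difference did not pass the adjusted test, and in VLDLR_KO the forms overlapped. That transcript took 66.5% to 69.1% of H2-DMa reads in VLDLR_KO, 78.9% to 89.2% in ROBO4_KO and 86.0% in both WT libraries with the digit after B. With the digit before B the shares were 64.5% and 75.3% in VLDLR_KO, 63.0% and 68.2% in ROBO4_KO and 43.7% to 64.1% in WT. Over all genotypes the means were 78.4 ± 9.3% (n = 8) with the digit after B and 60.8 ± 11.4% (n = 7) with the digit before B (exact permutation p = 0.00606, adjusted over 12 tests 0.0727). Of the 4 transcripts called between the forms (background 9.13%), NM_010386.4 was higher with the digit after B by 0.98 (SE 0.21, edgeR adjusted p = 0.011), both Cd74 transcripts were higher and so was that of H2-DMb1. Ciita reads were spread over transcripts with few counts each, of which none was called by edgeR in any genotype comparison, so its start sites could not be compared.

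The 5 genes whose levels over the 15 libraries were closest to the mean profile of the 7 class II genes were Mindy1, Fcgr3, Sgtb, Foxo3 and Mpc1, at a root mean square difference of 0.241, 0.252, 0.254, 0.259 and 0.269 in centred log2 CPM. Of the class II genes themselves H2-Ab1 (0.184), H2-Aa (0.283) and H2-DMb1 (0.328) were closest to that profile, and H2-Eb1 (0.516) and Ciita (0.839) farthest from it. Mpc1 encodes a carrier of pyruvate into mitochondria and Fcgr3 a low-affinity IgG receptor. Their log2 differences between VLDLR_KO and WT, -0.91 and -0.62, follow from the choice and are no test. The class II genes enter their own mean, so their likeness to it is partly built in.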

How the data were processed

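RNA of bone macrophages of 3 genotypes, 5 libraries each, was sequenced. HISAT, Bowtie2 (no versions) and GRCm38.p6 are listed in the submitters' processing notes. The quantifier and annotation are not given in the sources used here. The authors deposited estimated counts per gene and per transcript, named read counts per the file headers; 92.6% of gene counts are whole. They also deposited 1 expression column per library, FPKM judging by its values.

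Counts were rounded and fitted in R 4.3.3 with edgeR 4.0.16 (filterByExpr by genotype, TMM, quasi-likelihood F test, two-sided, Benjamini-Hochberg over 11668 of 16886 genes or 30096 of 54327 transcripts), with genotype and code form as terms on all 15 libraries. Named genes were the 8 genes, up to 3 called genes per list and comparison by size, and the 5 most alike. Other genes, such as Ctss, Rfx5, Cd86 and individual cell type markers, were named after their values were seen, and list calls without WT replicates 1 and 2 were added then. Alternatives used DESeq2 1.42.0 and limma 3.58.1 on log2(FPKM + 1). The fitting was tested on simulated data. Members and lists were chosen with earlier results of these data known. Of 152 list genes, 143 were in the table. Promoter sequences are from RefSeq. Intervals of counts were not computed, and replicates differed by more than counting error (chi-square per degree of freedom 5.7 to 246).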

Additional observations from a re-analysis of the deposited data

Results flagged for a closer look

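Of 33 groups of 5 libraries examined (8 genes and 3 transcript shares in 3 genotypes), 2 held a library far from the others by Dixon's test, where chance gives about 1 in 20. Ciita stood at 5.17 CPM in ROBO4_KO replicate 3, and at 1.14 to 2.14 CPM in the other ROBO4_KO libraries. H2-DMb1 stood at 24.1 CPM in VLDLR_KO replicate 1, and at 33.7 to 34.8 CPM in the other VLDLR_KO libraries. The difference of VLDLR_KO from WT was unequal between the code forms by an interaction test for 7 of 11 class I genes and 5 of 10 genes of the interferon gamma arm, and the gene with the largest such difference in each list is given here. It was lower with the digit after B than with the digit before B by -1.51 for H2-K1 (edgeR adjusted p = 0.000752) and by -1.84 for Irf1 (adjusted p = 2.45e-05).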

How the results depend on the processing

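In VLDLR_KO against WT 5 class II genes were called by edgeR on all 15 libraries, and 6 by DESeq2 and by limma on the same libraries. By edgeR, leaving out the code form gave 2 and the digit-before-B libraries alone gave 2. Leaving out WT replicates 1 and 2 gave 0 by edgeR, and leaving out single libraries gave 3 to 6. In VLDLR_KO against ROBO4_KO 2 were called; 0 without the code form, 5 by DESeq2, 0 with the digit after B only, and 1 to 4 with single libraries left out. Between forms 5 were called; 3 without WT replicates 1 and 2, and 3 to 5 with single libraries left out. The interaction called 0, 1 by limma and 0 to 3 with single libraries left out, some of which leave 1 library in a cell, assumed to vary like the others; the 3 came without VLDLR_KO replicate 1, where 5087 of all genes were called. ROBO4_KO against WT gave 0 in every alternative.

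Transcripts called in VLDLR_KO against WT numbered 3, but 1 without the code form, without the filter or with the digit after B only, 0 in the digit-before-B libraries alone or without WT replicates 1 and 2, and 0 to 4 with single libraries left out. Against ROBO4_KO they numbered 2, but 1 with DESeq2 size factors or without the filter, 0 without the code form or within either form, and 0 to 3 with single libraries left out. Between forms they numbered 4, but 1 without WT replicates 1 and 2, and 4 to 5 with single libraries left out.

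The replicate numbers were not used as pairs in the main model. Of 12 same-code pairs 4 correlated above 0.1 (-0.44 to 0.31), and 5 of 15 libraries correlated best with their own number. These correlations do not settle whether samples were paired. With the replicate block, 2 genes were called in VLDLR_KO against WT, 0 in VLDLR_KO against ROBO4_KO and 0 transcripts in either.

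Signs turned for values that were not called. Against WT, with the digit before B only, H2-DMa stood at 0.13 in VLDLR_KO, and H2-Aa, H2-Ab1, H2-Eb1, H2-DMa and Ciita at 0.17, 0.36, 0.25, 0.14 and 0.34 in ROBO4_KO; with the digit after B only, Cd74 stood at -0.32 in ROBO4_KO. Without WT replicates 1 and 2, H2-DMa stood at 0.11 in VLDLR_KO, H2-Ab1, H2-Eb1, H2-DMa and Ciita at 0.40, 0.15, 0.15 and 0.70 in ROBO4_KO, and H2-Aa and H2-Ab1 at -0.016 and -0.27 between forms. H2-DMa in ROBO4_KO was 0.0027 by limma. With single libraries left out, ROBO4_KO against WT ranged over -0.27 to 0.11 for H2-Ab1, -0.40 to 0.038 for H2-Eb1, -0.17 to 0.023 for H2-DMa, -0.71 to 0.012 for Ciita and -0.029 to 0.21 for Cd74, VLDLR_KO against ROBO4_KO over -0.18 to 0.028 for H2-DMa, and the form over -0.069 to 0.25 for H2-Ab1. The cause was not tested in any of these.

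Over all genes, calls in VLDLR_KO against WT numbered 1957, and 1086 without the code form. In VLDLR_KO against ROBO4_KO they numbered 1868, and 888 without it and 1141 with the replicate block. In ROBO4_KO against WT they numbered 75, and 39 without the code form, 172 by DESeq2, 20 and 188 within the forms and 44 without WT replicates 1 and 2. The interaction gave 1268, and 2446 by DESeq2 and 553 to 5087 with single libraries left out. DESeq2 size factors moved the median of all genes by less than 0.003. At 5 to 149 counts, Ciita is limited by depth.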
